A study of Danio rerio with 6 samples.

Results

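The 10 genes described here trap, make, store or move glucose, and were followed in larval zebrafish with and without a mutated sirt6 gene. The set was glucokinase (gck), its regulatory protein (gckr), the phosphoenolpyruvate carboxykinases pck1 and pck2, the fructose bisphosphatases fbp1a and fbp1b, the glucose-6-phosphatase catalytic subunits g6pca.1 and g6pca.2, the glucose transporter slc2a2 and the glycogen synthase gys2. They were taken by gene name, 10 of the 38157 genes in the deposited table, and all 10 names were found. The set was chosen by name around gck, which was selected on its lower FPKM in the mutants of these same libraries, so the genotype differences of its members are given as a description, with no test. The 6 libraries comprised 3 of sirt6 mutants, from a line made with CRISPR/Cas9, and 3 of wild type, all from tails at 3 days post fertilisation that still held blood-forming tissue. The labels do not name the mutant allele, and they do not tell whether each replicate was its own pool of animals, so p-values and spreads between libraries may be technical.

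Glucokinase adds a phosphate to glucose and so keeps it in the cell, and glucose-6-phosphatase removes that phosphate again so that glucose can leave. In the liver of mammals these opposing steps run in the same cells, with gck favoured after feeding and the gluconeogenic enzymes (phosphoenolpyruvate carboxykinase, fructose bisphosphatase and glucose-6-phosphatase) favoured in fasting. SIRT6 is a histone deacetylase of the sirtuin family that has been tied to the control of glucose metabolism in mice.

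Libraries held 12438359 to 14655293 reads in genes, recovered from the deposited FPKM values (fragments per kilobase of gene, scaled by a size for each library). The size implied by those values was 0.952 to 1.06 times the reads in genes, lowest in mutant library 2 (0.952) and wild-type library 1 (0.955). The scaling was therefore not by reads in genes alone. Wild-type libraries 2 and 3 were closest to each other, with a chi-square of 2.88 per degree of freedom over their gene counts, and mutant libraries 1 and 3 followed at 3.45. The other 13 pairs lay between 15.2 and 37.9, so wild-type library 1 and mutant library 2 stood apart from the rest of their groups. Wild-type library 1 was closer to the mutant libraries (19.7, 15.2 and 26.8) than to wild-type libraries 2 and 3 (37.1 and 37.9). Its closest was mutant library 2. Results are also given without both libraries that stood apart. The level of sirt6 overlapped between the groups. Its FPKM was 5.85, 3.25 and 2.44 in wild-type libraries 1 to 3 and 3.52, 3.39 and 3.04 in the mutants. Although labelled tail, the libraries also held transcripts of trunk organs. The liver marker fabp10a, a fatty acid binding protein of hepatocytes, ranged from 155 to 491 FPKM, and the summed level of 31 liver markers was 7032 to 9079 FPKM in wild type and 6105 to 8337 in mutants. Skeletal muscle markers were far higher, with sums of 41500 to 60962 FPKM over all libraries. These sums were highest in wild-type library 1 (60962) and mutant library 2 (55596), as were the liver marker sums and the summed FPKM of all genes. In such bulk samples, fewer cells of a type and less RNA per cell cannot be told apart.

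Glucokinase was lower in every mutant library than in every wild-type library. The gck gene (ENSDARG00000068006, GRCz11 chromosome 8, 40476811 to 40490593, plus strand) stood at 16.5, 9.93 and 9.37 FPKM in wild-type libraries 1 to 3, from 686, 408 and 356 reads. In mutant libraries 1 to 3 it stood at 3.11, 4.15 and 3.68 FPKM, from 123, 168 and 162 reads. The groups did not overlap, and the lowest wild-type library was above the highest mutant library. The means were 11.9 ± 3.96 FPKM (SD, n = 3) in wild type and 3.65 ± 0.519 (SD, n = 3) in mutants. On the log2(FPKM + 0.5) scale the mutants were lower by a log2 change of -1.55 (SE 0.23), which is 2.92-fold. Wild-type library 1 was the highest, and with it and mutant library 2 left out the change was -1.38.

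**Figure D1:**
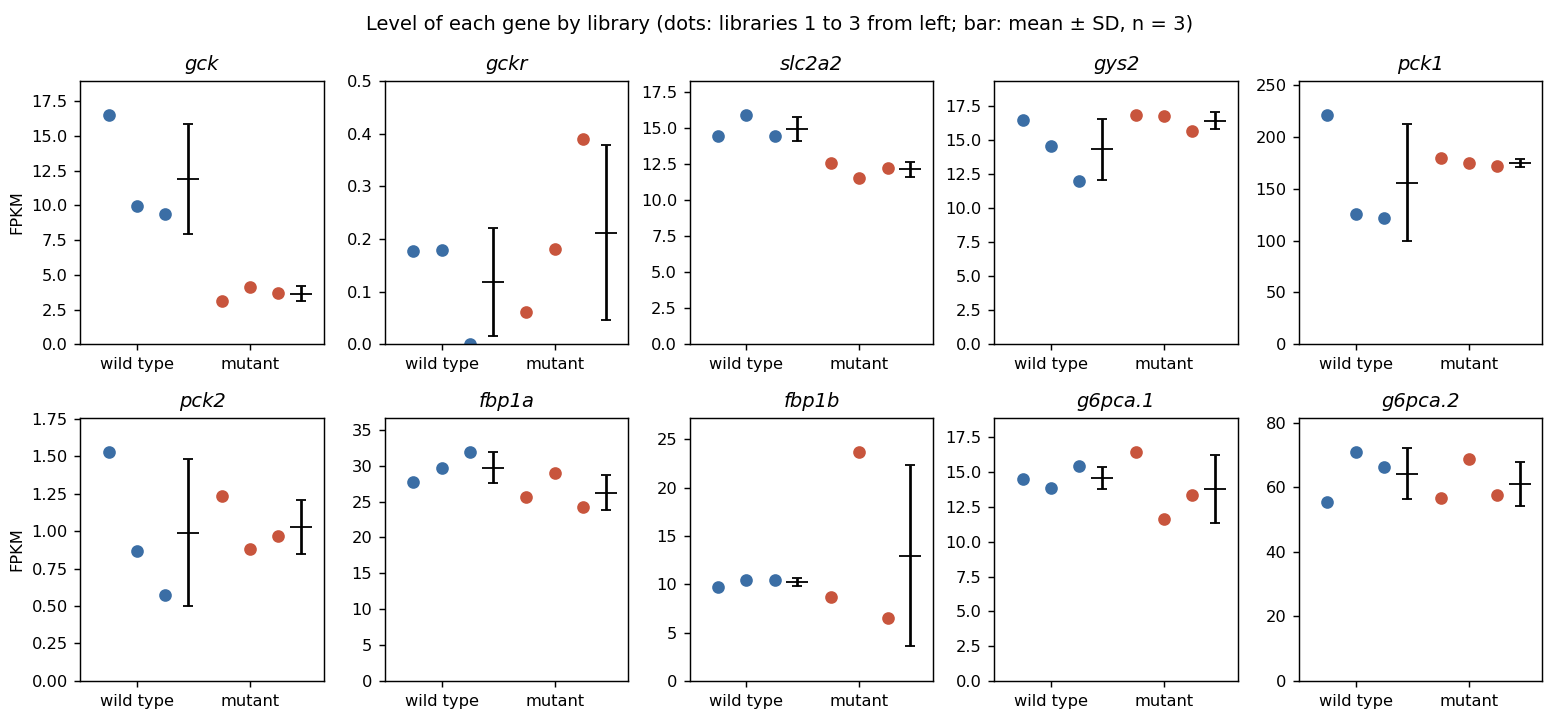
FPKM of the 10 genes, one panel each with its own linear axis from 0, with dots for libraries 1 to 3 of each genotype from left and a bar for the mean ± SD (n = 3). The gck points of the mutants (3.11 to 4.15) lie below those of wild type (9.37 to 16.5), whereas the groups of most other genes overlap.

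Over the whole table, limma with Benjamini-Hochberg adjustment called 0 of 23855 genes (0%) at 0.05, with 1368 genes at an unadjusted p under 0.05 and a smallest adjusted p of 0.0679. Limma voom on the recovered reads also called 0 genes, with 1199 at an unadjusted p under 0.05. All mutant libraries were lower than all wild-type libraries in 5.4% of these genes and higher in 5.16%. Of the 9 members that entered the fit, 2 were lower in this sense, gck and slc2a2, and 0 were higher. Because gck was selected on its lower FPKM, its place in this count was fixed beforehand, and only slc2a2 was not picked that way. The median log2 change of the 9 members was -0.07, against 0.00 over all genes in the fit.

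The glucokinase regulatory protein, which in mammals holds glucokinase inactive in the nucleus of liver cells, was barely detected. The gckr gene (chromosome 17, 5863150 to 5878032, minus strand) had 3, 3 and 0 reads in wild-type libraries 1 to 3 and 1, 3 and 7 in the mutants. Its level was at or under a floor of 3 reads in 5 of 6 libraries, so no fold is given, and its gene overlaps fndc4b on the other strand.

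The other hexokinases, which phosphorylate glucose in most tissues, had no gene that passed limma. The hexokinase hk1 averaged 3.47 ± 0.701 FPKM in wild-type libraries and 3.67 ± 0.339 in mutant ones (SD, n = 3 each). The hexokinase hk2 averaged 1.25 ± 0.784 FPKM in wild-type libraries and 2.1 ± 0.698 in mutant ones, and its groups overlapped. The ADP-dependent glucokinase adpgk2, which uses ADP in place of ATP, was at 1.16, 7.98 and 4.78 FPKM in wild-type libraries and 7.80, 4.23 and 10.1 in mutant ones. Of the 4 genes of this list in the fit, 0 passed in either direction and their median log2 change was 0.36. One of them, hkdc1, named after its values were seen, was lower in all mutants (1 of 4 genes, against 5.4% of all genes), at 0.877 ± 0.217 FPKM against 1.19 ± 0.138.

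As a share of the summed FPKM of gck, hk1, hk2 and hkdc1, gck made up 72.3%, 62.7% and 62.9% in wild-type libraries 1 to 3. In the mutants it made up 32.5%, 35.0% and 38.9%. The sum of the other 3 was 5.92 ± 0.405 FPKM in wild-type libraries and 6.65 ± 0.962 in mutant ones (SD, n = 3). Its groups overlapped. These sums leave out the ADP-dependent adpgk2, at 4.64 ± 3.41 FPKM in wild-type libraries and 7.38 ± 2.97 in mutant ones, so the gck shares hold for the 4 named genes only.

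**Figure D2:**
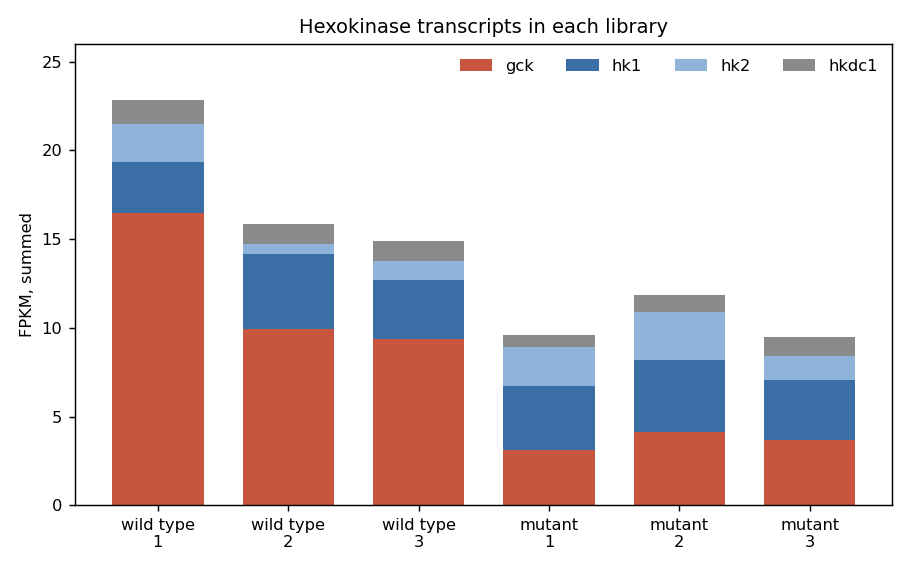
Stacked FPKM of gck, hk1, hk2 and hkdc1 in each library. The gck part of the sum is 62.7% to 72.3% in wild type and 32.5% to 38.9% in the mutants, and the summed level of the other 3 overlaps between the groups.

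The transporter slc2a2, which carries glucose across the membrane of liver, gut and islet cells in mammals, was the other member whose groups did not overlap. The gene (chromosome 2, 25816843 to 25837986, plus strand) was at 14.4, 15.9 and 14.4 FPKM in wild-type libraries and 12.6, 11.5 and 12.2 in mutant ones. The log2 change was -0.29 (SE 0.12), and it ran from -0.31 to -0.24 over the alternatives. It overlaps tnika on the same strand, at a mean of 6.09 FPKM. The sirt6 gene lies on the same chromosome, at 53065039 to 53201840. Whether either bears on the slc2a2 difference was not tested.

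The phosphoenolpyruvate carboxykinases, which start gluconeogenesis from oxaloacetate, overlapped between genotypes. The cytosolic form pck1 (chromosome 6, 60055168 to 60062097, plus strand) was the most abundant member, at 221, 126 and 121 FPKM in wild-type libraries and 179, 174 and 172 in mutant ones. Wild-type library 1 was above every mutant and the other two below, and the log2 change of 0.22 (SE 0.23) became 0.51 without the libraries that stood apart. The mitochondrial form pck2 (chromosome 24, 12920019 to 12938922, minus strand) was near 1 FPKM, with 25 to 73 reads and a log2 change of 0.08 (SE 0.28). The share of pck1 in the summed FPKM of both was 99.4% in either group.

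The fructose bisphosphatases, which carry out the step before glucose-6-phosphate is formed, differed from each other in spread. The gene fbp1a (chromosome 5, 44833313 to 44843738, minus strand) was at 27.7, 29.6 and 31.9 FPKM in wild-type libraries and 25.6, 28.9 and 24.2 in mutant ones. Its log2 change was -0.18 (SE 0.13), and its span overlaps CT025745.1 on the other strand, at a mean of 3.61 FPKM. The gene fbp1b (chromosome 5, 35458190 to 35462126, plus strand) was at 9.74, 10.4 and 10.5 FPKM in wild-type libraries and 8.71, 23.7 and 6.46 in mutant ones. Mutant library 2 alone was high. The log2 change of fbp1b was 0.11 (SE 0.41), and -0.45 without both libraries that stood apart. Its paralogue share moved with it, fbp1a making up 55.0% of the summed fbp1 FPKM in mutant library 2 and 74.0% to 79.0% in the other libraries.

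The glucose-6-phosphatase subunits, which release free glucose, overlapped between genotypes. The gene g6pca.1 (chromosome 12, 6023490 to 6033854, minus strand) was at 14.5, 13.9 and 15.5 FPKM in wild-type libraries and 16.4, 11.6 and 13.3 in mutant ones. Its neighbour g6pca.2 (chromosome 12, 6041575 to 6048286, plus strand), 7720 bases away, was at 55.5, 70.9 and 66.2 FPKM in wild-type libraries and 56.7, 68.8 and 57.6 in mutant ones. The log2 changes were -0.09 (SE 0.16) and -0.07 (SE 0.15). The pair kept its proportions, g6pca.2 giving 81.3% ± 2.18 of their sum in wild-type libraries and 81.4% ± 4.02 in mutant ones (SD, n = 3).

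Glycogen synthase of the liver type, gys2 (chromosome 4, 16783972 to 16824556, minus strand), builds glycogen chains. It was at 16.5, 14.6 and 12 FPKM in wild-type libraries and 16.8, 16.8 and 15.7 in mutant ones, a log2 change of 0.20 (SE 0.15) with overlapping groups. Its span overlaps STMP1, golt1ba and spx on the other strand. No strand setting is known for the counting, and whether they share counted exons was not tested.

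**Figure D3:**
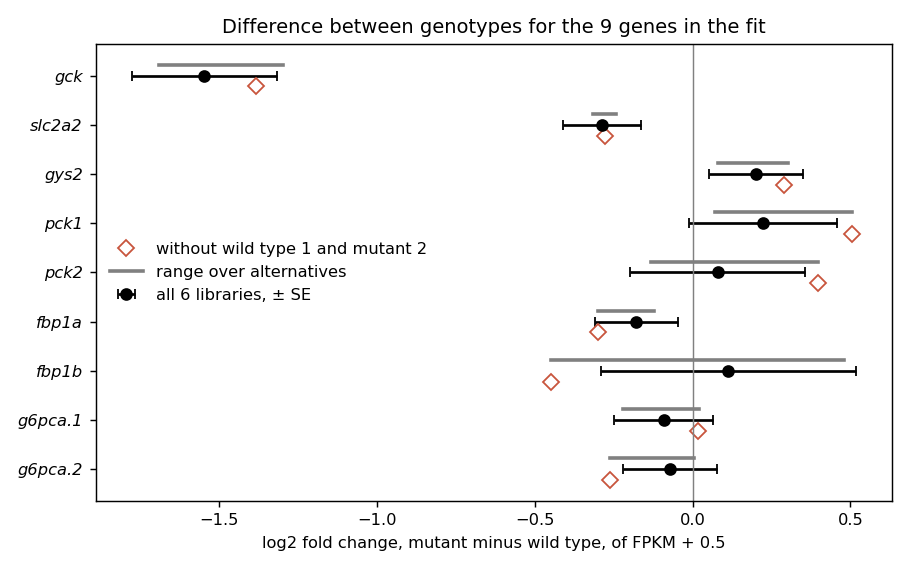
Log2 change, mutant minus wild type, of the 9 genes in the fit on the log2(FPKM + 0.5) scale, with standard errors (bars), the range over alternatives (grey lines) and the value without wild-type library 1 and mutant library 2 (diamonds). The gck value is -1.55, and the other 8 lie between -0.29 and 0.22.

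Set against glucose production within each library, gck was lower in the mutants. The level of gck minus the mean log2 level of the 6 production genes (pck1, pck2, fbp1a, fbp1b, g6pca.1 and g6pca.2) was -0.36, -0.92 and -0.96 in wild-type libraries 1 to 3. In mutant libraries 1 to 3 it was -2.50, -2.30 and -2.11. The means were -0.75 ± 0.33 and -2.30 ± 0.19 (SD, n = 3), a difference of -1.56. Rescaling the libraries by median of ratios also gave -1.56. A difference within a library hardly depends on its scaling, so that value was no check. Among the 6 production genes, 0 had groups that did not overlap, against 5.4% lower and 5.16% higher of all genes in the fit. In a set of 6 genes, 0 is near those shares. As a percent of the summed g6pca FPKM, gck was 23.6, 11.7 and 11.5 in wild type and 4.25, 5.16 and 5.19 in mutants.

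**Figure D4:**
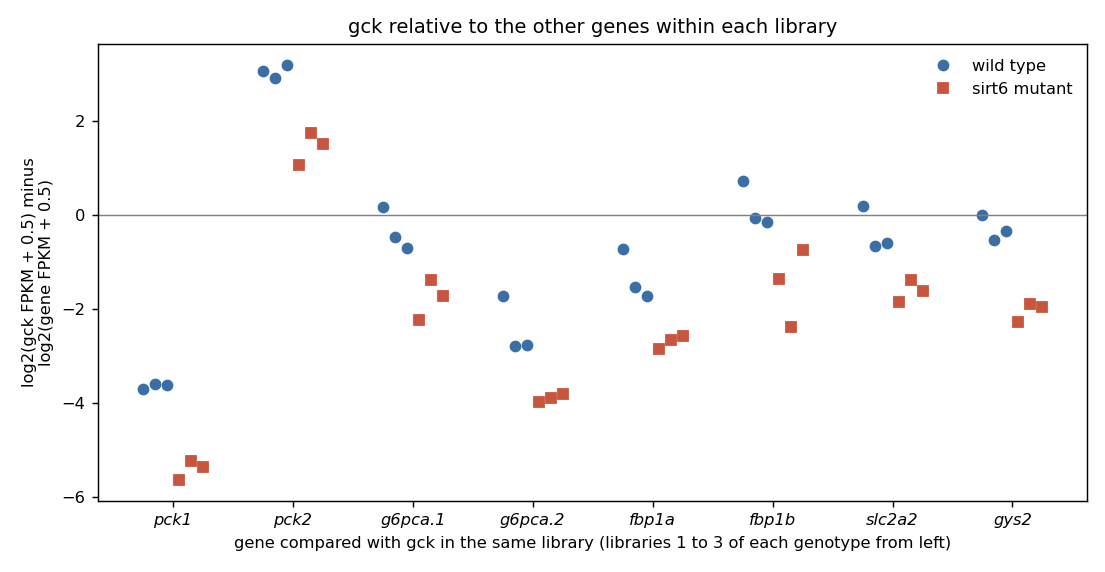
Log2(FPKM + 0.5) of gck minus that of each of the other 8 genes in the fit, in the same library, with libraries 1 to 3 of each genotype from left. In every comparison the 3 mutant libraries lie below the 3 wild-type ones, and the mean difference runs from -1.77 (against pck1) to -1.26 (against slc2a2). The comparisons share the same gck values, and gck was selected as lower in these mutants, so they are not separate evidence.

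Markers of trunk organs were set beside gck. Relative to the mean log2 level of the markers in the fit, gck was lower in mutants by a log2 difference of -1.51 against liver, -1.39 against intestine and -1.43 against endocrine pancreas. Of 31 liver markers in the fit, 2 were lower in all mutants and 5 higher, with a median log2 change of -0.10. Over all genes in the fit these shares were 5.4% lower and 5.16% higher. Of 19 endocrine pancreas markers in the fit, 6 were lower in all mutants and 0 higher, against the same 5.4% and 5.16%. By their means, 10 of these 19 were lower and 9 higher, and their median was -0.03. The marker mnx1 was at 0 in all libraries. The summed level of the endocrine pancreas markers was 169 to 195 FPKM in wild type and 180 to 207 in mutants. The highest in that sum were neurod1, scg2b and isl1, averaging 48.3, 28.0 and 22.2 FPKM over all libraries. Expression of these markers outside the pancreas was not tested. Of 25 intestine markers, 6 were lower in all mutants and 0 higher, again against 5.4% and 5.16% of all genes, and their median was -0.16. The part of these cell types in the gck difference was not tested.

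In wild type the order of level was pck1, g6pca.2 and fbp1a, then slc2a2, g6pca.1, gys2, gck and fbp1b, whose neighbours in that order overlapped in range, then pck2 and gckr. In mutants gck lay below that middle group, its highest library (4.15 FPKM) lying under the lowest of fbp1b (6.46 FPKM).

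The other genes around glucose gave no calls. Limma passed 0 genes in either direction in each of the 7 pathway lists. Among 25 other glucose production genes, 4 were lower in all mutants (16%, against 5.4% of all genes in the fit) and 1 higher (4%, against 5.16%), with a median log2 change of 0.04. The lower ones were fbp2, slc37a4b, tat and sdsl, and the higher one was g6pc3, all named after their values were seen. The most abundant of the 25 were the lactate dehydrogenase ldhba (330 ± 54.0 FPKM in wild type, 358 ± 49.5 in mutants), the enolase eno3 (186 ± 53.8 and 224 ± 33.1) and the triosephosphate isomerase tpi1b (174 ± 21.5 and 209 ± 41.1). Each had its highest levels in wild-type library 1 and mutant library 2. So did the summed FPKM of muscle markers, of liver markers and of all genes. The sum over all genes was 543739 FPKM in wild-type library 1 and 520153 in mutant library 2. It was 425828 to 462229 in the others. The part of muscle in the levels of ldhba, eno3 and tpi1b was not tested. Among 26 glycogen genes, 3 were lower (11.5%, against 5.4%) and 2 higher (7.69%, against 5.16%), with a median of -0.03. The glycogen phosphorylases pygma and pygl and the phosphoglucomutase pgm1 led this list, at 80.9, 66.1 and 80.5 FPKM in mutants and 77.5, 67.2 and 74.3 in wild type.

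Among 14 other sugar transporters, 1 was lower in all mutants (7.14%, near the 5.4% of all genes) and 0 higher (against 5.16%), with a median of 0.07. That one was the sodium-glucose transporter slc5a1, at 34.1 ± 1.04 FPKM in wild-type libraries and 28.5 ± 1.54 in mutant ones, while slc2a1b and slc2a3a overlapped. Among the 6 enzymes that make and break fructose bisphosphate signals for glycolysis (the pfkfb family), 2 were lower (33.3% of a list of 6, against 5.4% of all genes) and 0 higher (against 5.16%), with a median of -0.22. These were pfkfb3 (16.7 ± 1.69 and 13.8 ± 0.666 FPKM) and pfkfb4b (14.1 ± 0.689 and 11.2 ± 0.899), and pfkfb4a overlapped.

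Among 23 genes of the carbohydrate response and fat synthesis, 1 was lower and 1 higher (4.35% each, near the 5.4% and 5.16% of all genes), with a median of 0.08. The most abundant were the transketolase tktb, at 131 ± 1.56 FPKM in wild-type libraries and 152 ± 5.23 in mutant ones, and, after pklr, the malic enzyme me3, at 45.6 ± 2.56 and 41.5 ± 1.17. The liver pyruvate kinase pklr, which in mammals responds to glucose use, was at 41.7 ± 22.0 and 45.8 ± 5.69 FPKM. Among 49 genes of hormone and transcription control, 2 were lower (4.08%, near 5.4%) and 3 higher (6.12%, near 5.16%), with a median of 0.05. The most abundant of these, cebpd, txnipa and txnipb, overlapped between genotypes.

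**Figure D5:**
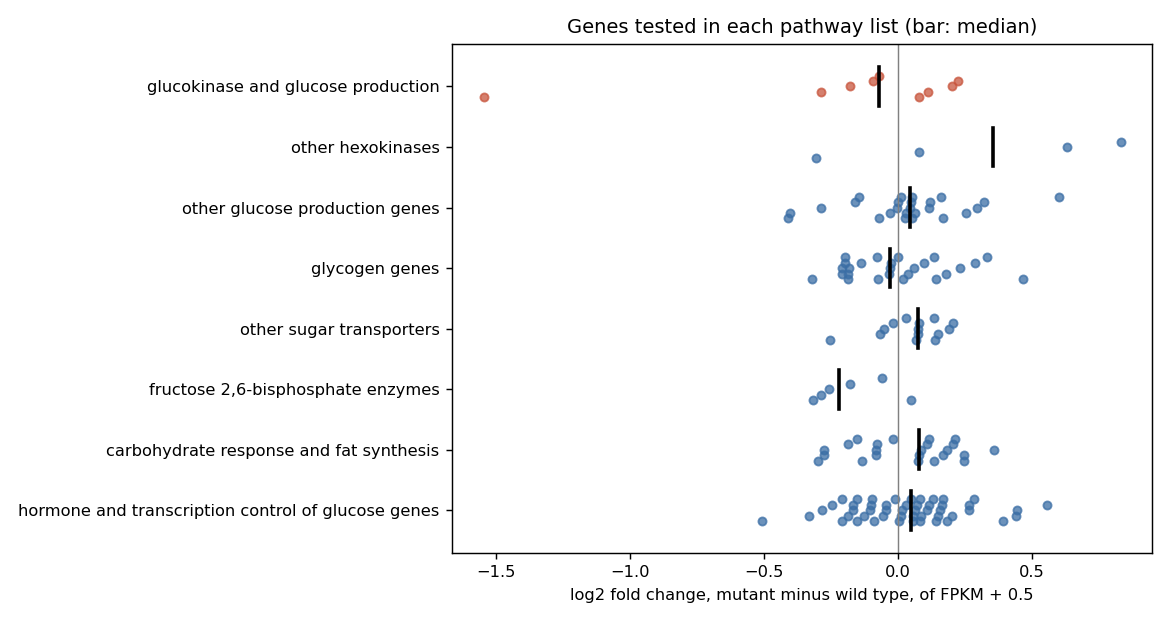
Log2 change of each gene in the fit, for the 9 members and the 7 pathway lists, on the log2(FPKM + 0.5) scale, with a bar at each median. Pathway list medians run from -0.22 (pfkfb family) to 0.36 (other hexokinases), and 0 genes pass limma in any list.

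The genes whose pattern was most like that of gck were ranked by Pearson's r of log2(FPKM + 0.5) over the 6 libraries, points that share the gap between genotypes. Of 15170 genes compared, 121 (0.798%) had an r above 0.9. A mitochondrial gene listed as NC_002333.13 (ENSDARG00000081938) had an r of 0.997. It stood at 151 to 972 FPKM from only 147 to 993 reads, so its counted length was short. The others were viml (0.99), the phosphatase subunit ppp2r3b (0.99), CR589876.1 (0.99) and g0s2 (0.99), an inhibitor of fat breakdown in mammals. The level of g0s2 was 5.54, 3.35 and 4.11 FPKM in wild-type libraries and 1.22, 1.74 and 1.44 in mutant ones. Among members, slc2a2 had an r of 0.81 with gck and fbp1a 0.57. The other 6 lay between -0.37 and 0.14, with gys2 at -0.37, pck1 at -0.07, fbp1b at -0.03, pck2 and g6pca.2 at 0.10 and g6pca.1 at 0.14.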

How the data were processed

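The authors deposited FPKM values of 6 libraries in one table. Per the submitters' processing notes, the tools were HISAT2 2.0.5, featureCounts, FastQC and DESeq2, on GRCz11. The strand setting was not given in the sources used. FPKM times gene length gave whole reads within 1e-06 for all values above 0. Limma 3.58.1 in R 4.3.3 was run on log2(FPKM + 0.5) with a variance trend, for 23855 genes averaging 0.5 FPKM or more, two-sided, with Benjamini-Hochberg adjustment at 0.05. The added 0.5 understates changes of low genes. A floor is 3 reads, and covers counting error only.

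The members and lists were chosen with earlier results of these data known. Genes named by rule were all members, sirt6, in each pathway list those passing limma and the 3 of highest mean FPKM, and the 5 genes most like gck above 1 FPKM. Other genes, such as hkdc1, fbp2, g6pc3 and the single endocrine pancreas markers, were named outside these rules with their values seen. Alternatives changed the pseudocount, filter, scaling, variance trend, test, block and libraries.

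The fit was tested on simulated data laid out as this comparison, in 10 draws of 23843 to 23906 genes with 200 changed 4-fold. It recovered 99.9% of the changed genes, but 7.72% of its calls were false (4.81 to 10.3% per draw), above the 5% aimed at. The spread of the simulated libraries was not compared with that of the real ones, where some libraries stood apart from their group. The recovery of 99.9% therefore holds for the simulated data only. It cannot tell how many changes the fit missed in the real libraries. Of 166 false calls, 30 had a mean of at least 10 reads, the rest being short genes with fewer. The first version of this check, with 1 draw, failed its limit on false calls, so the check was changed to count them by reads, and a filter at a mean of 10 reads was added as an alternative. With it 6.23% of simulated calls were false, or 132 calls, each with a mean of at least 10 reads. False calls were therefore not limited to genes with few reads. Members in the fit had at least 25 reads in each library.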

Additional observations from a re-analysis of the deposited data

How the results depend on the processing

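The number of genes passing limma was 0 with the settings above, and 2 with a mean of at least 5 FPKM, 2 with quantile normalization and 4429 (2183 higher, 2246 lower) with wild-type library 1 and mutant library 2 both left out. These 2 libraries were known to stand apart from earlier results, and the cause was not tested. Leaving them out keeps the 2 closest pairs of libraries (chi-square of 2.88 and 3.45 per degree of freedom), picked from these same data. That choice fixed a small spread within groups, so the 4429 calls cannot be read as a count of genotype changes. Leaving out each library in turn gave 0 genes each time, with 787 to 4421 at an unadjusted p under 0.05. A filter at a mean of 10 reads, chosen after the simulated data were seen, gave 0 of 22624 genes, with 1257 at an unadjusted p under 0.05. The difference of gck from glucose production ran from -1.69 to -1.37 over the alternatives. Leaving out libraries could not change its sign, since gck was selected as lower and the groups did not overlap. The gck change ran from -1.69 to -1.30, including 3 comparisons with marker levels chosen after the data were seen. The small changes of pck2, g6pca.1, g6pca.2 and fbp1b changed sign in at least 1 alternative. Whether replicate numbers pair the libraries cannot be told from 3 libraries per group. Deviations of same-numbered libraries correlated at 0.05, 0.01 and 0.11, against -0.10 to 0.04 for libraries of different number. Not every library correlated best with its own number. With the replicate block 0 genes passed. The block cannot move the gck difference of -1.56, since each replicate number occurs in both groups. Depth limits gckr, with 0 to 7 reads.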

Other observations

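The genes fbp2 and g6pc3, outside the set and named after their values were seen, had groups that did not overlap. Of all genes in the fit, 5.4% were lower in this sense and 5.16% higher. The muscle-type fructose bisphosphatase fbp2, which lies 3593 bases from fbp1a on the same strand, was at 98.3 ± 12.6 FPKM (SD, n = 3) in wild-type libraries and 74.0 ± 10.1 in mutant ones. The ubiquitous glucose-6-phosphatase g6pc3 was at 4.28 ± 0.316 FPKM in wild-type libraries and 5.47 ± 0.281 in mutant ones. Both differences failed limma's adjustment over all genes.

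The endocrine pancreas markers had means on both sides of wild type. Of 19 in the fit, 10 had a lower and 9 a higher mean in mutants, and their median log2 change was -0.03. All mutants were lower in 6 of them, gcga, sst1.2, ghrl, pdx1, slc30a8 and scgn, and higher in 0, against 5.4% and 5.16% of all genes. The glucagon gene gcga was at 3.79 ± 0.178 FPKM (SD, n = 3) in wild-type libraries and 2.56 ± 0.667 in mutant ones, whereas its paralogue gcgb was at 8.86 ± 5.44 and 9.24 ± 2.97 FPKM. The somatostatin gene sst1.2 was at 4.23 ± 0.732 and 2.02 ± 1.03 FPKM, and the more abundant sst1.1 overlapped, at 17.1 ± 2.11 and 15.4 ± 4.48. The prohormone convertases pcsk1 and pcsk2 had higher means in mutants, with log2 changes of 0.36 and 0.40 and overlapping groups, and the insulin gene ins also overlapped. The ghrelin gene ghrl, at 1.35 ± 0.189 and 0.637 ± 0.243 FPKM, rested on 3 to 13 reads. Reads were also few for pdx1 (4 to 13), ins (4 to 26) and sst1.2 (14 to 67). None of the 19 passed limma, and their expression outside the pancreas was not tested.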
